A study of Macaca fascicularis with 34 samples.

Results

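Among 9 single cells taken from male gonads of cynomolgus monkeys (Macaca fascicularis, subspecies fascicularis), 3 held transcripts of the somatic gonad at high levels beside those of germ cells. They were chosen by their own measured values: a gonad cell counted as somatic-rich when WT1 stood at 50 RPM or more (RPM, reads scaled to the total of the library), or INSL3 at 1000 RPM or more. E36 cell 5, E47 cell 1 and E55 cell 2 met this rule, and 6 other gonad cells, E36 cells 1, 2, 3, 4 and 6 and E55 cell 1, did not. The series holds 34 cells in all, and 0 of its 25 embryo cells met the rule.

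The gonad cells came from embryonic day (E) 36 (6 cells), E47 (1 cell) and E55 (2 cells), all labelled male, with no treatment named. Their titles share the code MS11, whose meaning the labels do not give. RNA of each single cell was converted to amplified cDNA and sequenced by SC3-seq, a method that reads the 3′ ends of transcripts. The labels name no animal, no cell type and no way of choosing cells. Each stage therefore counts as 1 sample, cells are not replicates of a condition, and no difference between the groups of cells was tested.

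A fetal testis is built from germ cells and several somatic classes. Supporting cells, the Sertoli cells and their precursors, enclose germ cells, secrete anti-Müllerian hormone and the ligand DHH, and descend from a gonadal epithelium that needs WT1, LHX9, GATA4 and NR5A1. Interstitial stroma carries NR2F2 and collagens, receives the DHH signal through PTCH1, and gives rise to fetal Leydig cells. Leydig cells make INSL3, a hormone of testis descent, and turn cholesterol into androgen: STAR carries cholesterol into the mitochondrion, CYP11A1 cuts its side chain with electrons passed on by FDXR and FDX1, and HSD3B2 and CYP17A1 complete the next steps.

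The rule itself left a wide gap. WT1 was at 141 RPM in E36 cell 5, 57.2 RPM in E55 cell 2 and 21.8 RPM in E47 cell 1, and had 0 reads in each of the 6 other cells. INSL3 was at 15703 RPM in E47 cell 1 and next highest at 5.79 RPM in E55 cell 2. The cell just inside the WT1 limit was thus E55 cell 2, and the cell just under it, E47 cell 1, entered through INSL3. Of 6 marker genes for these cells (WT1, LHX9, NR2F2, INSL3, CYP17A1 and STAR), E47 cell 1 held 5 at 15 RPM or more, E36 cell 5 held 4 and E55 cell 2 held 1. E36 cell 1, which the rule left out, held 2 of them, LHX9 at 57.4 and NR2F2 at 83.5 RPM, and E36 cell 3 held 1, LHX9 at 35.7 RPM. By these 6 markers alone E55 cell 2 would not stand out, and what it held is described below from a longer list.

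Depth, recovered from the steps between low values, ran from 809117 to 2945023 reads per gonad cell. The 3 somatic-rich cells had 2945023, 1102517 and 1380690 reads in the order E36 cell 5, E47 cell 1 and E55 cell 2. A level of 15 RPM or more was reached by 6789, 8016 and 7555 genes in them, in the same order, against 5233 to 6842 genes in the 6 other cells. With every cell thinned to 804535 reads the counts were 6748, 7927 and 7457 against 5210 to 6757. The cell among the 6 with the most genes, E55 cell 1, came from a later stage than the rest and exceeded E36 cell 5. Whether a library held RNA of more than 1 cell was not tested.

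Most large differences pointed upwards in the somatic-rich cells. Of 11626 genes that reached 15 RPM in at least 1 gonad cell, 2322 (20%) averaged at least 4-fold higher in the somatic-rich cells on the scale of log2(RPM + 1), and 161 (1.38%) at least 4-fold lower. Without E47 cell 1 the number lower was 355, and without E55 cell 2 it was 299. The median difference of all 11626 genes was 0.74 log2 units, and each list below is read beside this value. All 3 somatic-rich cells lay above all 6 others for 470 genes (4.04%) and below them for 64 genes (0.55%). Within E36 alone, cell 5 against 5 cells, 2678 genes were higher and 1008 lower, and within E55 alone, cell 2 against cell 1, 1933 were higher and 1179 lower. The cells were chosen by values from this same comparison, so these counts and the list medians that follow are descriptions.

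The 3 cells did not hold the same somatic genes. Counting genes at 15 RPM or more and at least 2-fold above the highest of the 6 other cells, E36 cell 5 had 827 (7.11% of the 11626), E47 cell 1 had 1086 (9.34%) and E55 cell 2 had 914 (7.86%). E36 cell 5 and E47 cell 1 shared 244 such genes, which is 29.5% of the first list and 22.5% of the second. E36 cell 5 and E55 cell 2 shared 218 (26.4% and 23.9%), E47 cell 1 and E55 cell 2 shared 256 (23.6% and 28.0%), and 101 genes were in all 3 lists. The comparisons share the same 6 cells.

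**Figure D1:**
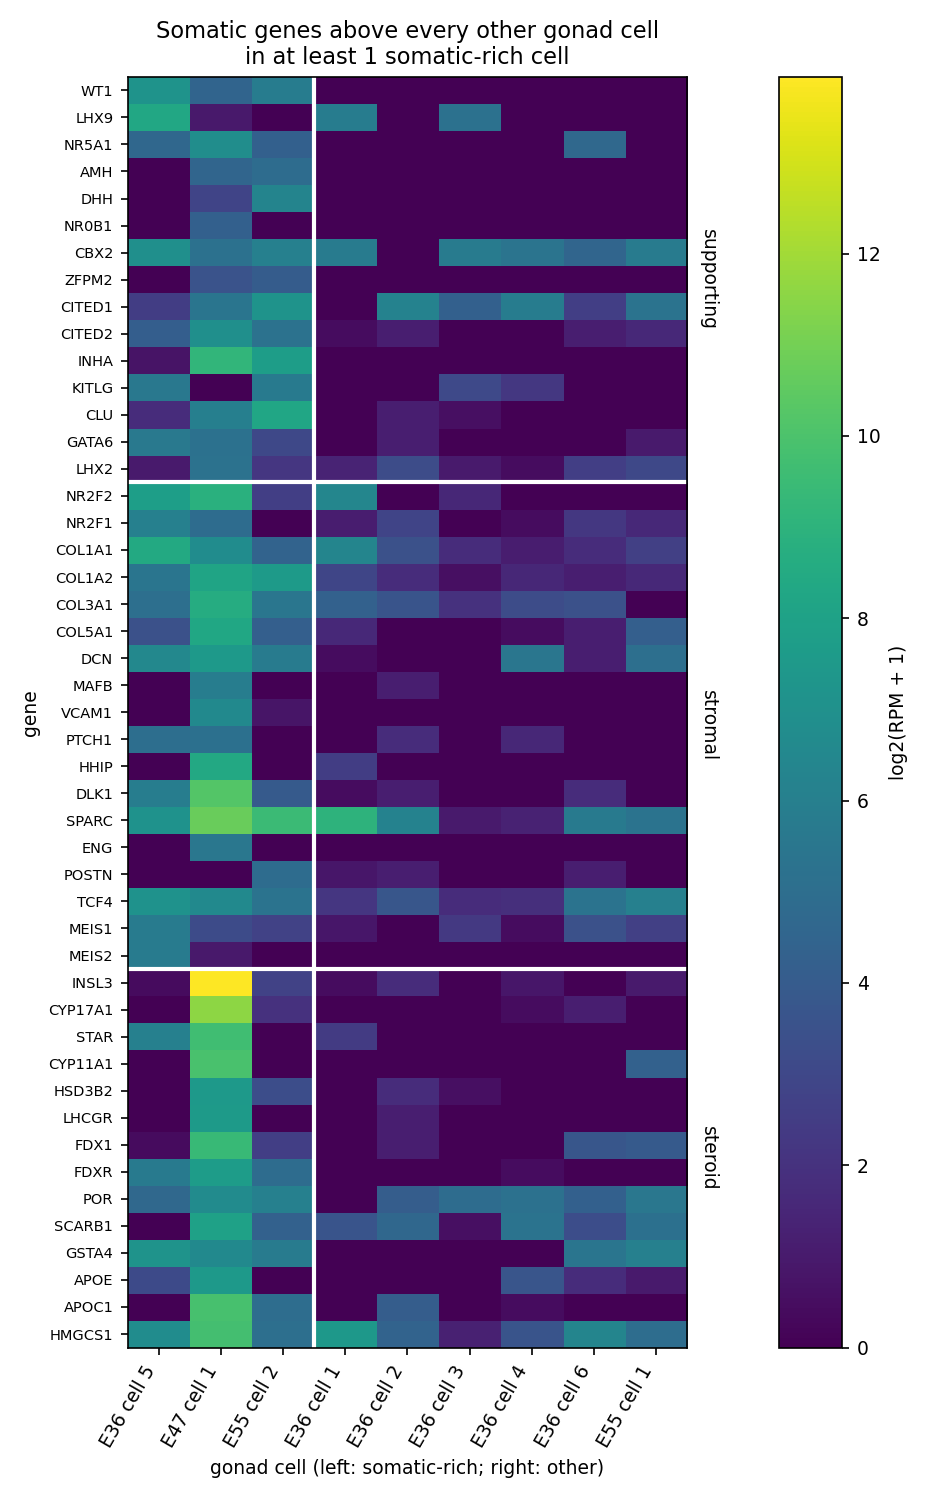
Level of 47 supporting, stromal and steroid genes, as log2(RPM + 1), in the 3 somatic-rich cells (left) and the 6 other gonad cells (right). Each gene shown is at 15 RPM or more and at least 2-fold above the highest of the 6 others in at least 1 somatic-rich cell, and INSL3 in E47 cell 1 (15703 RPM) is the brightest field.

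The list of supporting-cell and early gonadal epithelium genes held 30 genes of the table, of which 25 reached 15 RPM in some gonad cell. Of these 25, 11 were at least 4-fold higher in the somatic-rich cells on average, where 20% of all genes were. None was as much lower, and the median difference was 1.42. The number of these genes at 15 RPM or more was 12 in E36 cell 5, 18 in E47 cell 1 and 19 in E55 cell 2, against 5 to 8 in the 6 others. Of the 11626 genes, 6789, 8016 and 7555 reached that level in the same order, against 5233 to 6842 in the 6 others. The 12 of 25 in E36 cell 5 was a smaller share than that of all genes, and the 18 of 25 in E47 cell 1 a similar one. Of the 25 genes, 6 stood at least 2-fold above all others in E36 cell 5, 9 in E47 cell 1 and 9 in E55 cell 2. All genes had 7.11%, 9.34% and 7.86% in the same order. WT1, whose values chose the cells, is counted in all of these figures, so they are in part built in. All 3 cells exceeded all 6 others for 5 of the 25 genes, against 4.04% of all genes. These were WT1, which the rule used, CITED2, GATA6, CLU and INHA. In E36 cell 5 the last 2 rest on 7 reads of CLU and 2 reads of INHA, too few to set that cell above the others.

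Of the transcription factors and chromatin genes of the early gonad, LHX9, GATA6 and CBX2 were highest in E36 cell 5. LHX9, needed to form the gonadal ridge, was at 330.0 RPM there, 0.907 RPM in E47 cell 1 and 0 in E55 cell 2, and ran from 0 to 57.4 RPM (median 0) in the 6 other cells. GATA6, a factor of somatic gonad cells, was at 48.6, 35.4 and 7.24 RPM in E36 cell 5, E47 cell 1 and E55 cell 2, and at no more than 1.23 RPM in the others. CBX2, a Polycomb gene of male sex determination, was at 124 RPM in E36 cell 5 and at most 55.3 RPM in the 6 others. TCF21, a factor of early gonadal and stromal precursors, was at 45.5 RPM in E36 cell 5 and at 62.6 RPM in E36 cell 3, so it did not set the somatic-rich cells apart. E36 cell 5 had 0 reads of AMH and DHH and 2.72 RPM of SOX9, genes of differentiated Sertoli cells.

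E36 cell 5 also held RSPO1, an activator of WNT signalling that the early gonad of either sex expresses, at 45.2 RPM, where all other gonad cells had 0 reads. FOXL2, a factor of ovarian granulosa cells, had 0 reads in all 9 cells. WNT4, another ovarian gene, was at 0.679 RPM in E36 cell 5 and at 0 in the other 8.

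NR5A1, which directs steroid enzyme genes and the early gonad, was at 24.1 RPM in E36 cell 5, 112 RPM in E47 cell 1 and 18.1 RPM in E55 cell 2. It was at 24.7 RPM in E36 cell 6 and at 0 in the 5 others, so only E47 cell 1 lay above all of them. GATA4 (256, 168 and 243 RPM against 18.5 to 257, median 139) and EMX2 (8.49, 39.0 and 26.1 RPM against 4.23 to 60.3, median 34.2) overlapped between the cells. DMRT1, a gene of both Sertoli and germ cells, was at 166 RPM in E36 cell 5, 21.8 in E47 cell 1 and 64.5 in E55 cell 2, and at 10.01 to 114 RPM (median 59.6) in the others. Factors of the gonadal ridge were therefore found in cells on both sides of the rule.

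Of the products of Sertoli cells, DHH and CLU were most abundant in E55 cell 2, while INHA, described below, was highest in E47 cell 1. DHH, the hedgehog ligand of Sertoli cells, was at 76.0 RPM in E55 cell 2 and 6.35 RPM in E47 cell 1, with 0 reads in the other 7 gonad cells. AMH, which makes the Müllerian ducts regress, was at 29.7 RPM in E55 cell 2 and 22.7 RPM in E47 cell 1, again with 0 reads in the other 7. These genes were at low levels, and a count of 0 over the 6 cells together allows up to 0.308 RPM (3 reads), which leaves AMH in E55 cell 2, taken as measured, at least 96-fold higher. CLU, the clusterin gene of Sertoli cells, was at 303 RPM in E55 cell 2, 63.5 RPM in E47 cell 1, 2.38 RPM in E36 cell 5 and 0 to 1.23 RPM in the others. CITED1 was at 144 RPM in E55 cell 2 and at 0 to 71.4 RPM (median 28.8) in the 6 others. SOX9, the factor that starts Sertoli cell differentiation, was at 42.7 RPM in E55 cell 2 but at 74.2, 84.3 and 48.2 RPM in E36 cells 1, 4 and 6, and did not separate the groups. PTGDS, SOX8 and FATE1, other Sertoli cell genes, had 0 reads in all 9 cells.

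INHA, the inhibin alpha subunit made by Sertoli and Leydig cells, was at 586 RPM in E47 cell 1 and 212 RPM in E55 cell 2. E36 cell 5 had 0.679 RPM, and the 6 other cells had 0 reads. Taken as measured, the level in E47 cell 1 was at least 1900-fold, and that in E55 cell 2 at least 688-fold, above the 0.308 RPM that 0 reads over the 6 cells allow. In all 25 embryo cells INHA stayed at or under 0.895 RPM. CITED2, a cofactor that acts with WT1 in the early gonad, was at 16.98, 122 and 37.7 RPM in E36 cell 5, E47 cell 1 and E55 cell 2 and at 0 to 2.05 RPM in the others. Embryo cells held it too, with 16 of 25 at 15 RPM or more.

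The stromal list held 37 genes of the table, and 28 reached 15 RPM in some gonad cell. Its median difference was 2.29, with 16 genes at least 4-fold higher in the somatic-rich cells (20% of all genes were) and 0 as much lower. E36 cell 5 held 17 stromal genes at 15 RPM or more, E47 cell 1 held 21 and E55 cell 2 held 11, against 3 to 7 in the 6 others. Of the 11626 genes, 6789, 8016 and 7555 reached that level in the same order, against 5233 to 6842 in the 6 others. The 17 and 21 of 28 were near the shares of all genes, and the 11 of 28 was below. The count at least 2-fold above all 6 others was 10 in E36 cell 5, 14 in E47 cell 1 and 3 in E55 cell 2. All genes had 7.11% in E36 cell 5 and 9.34% in E47 cell 1. Without E36 cell 1 among the others, the stromal count in E55 cell 2 was 5. With 3 of 28, E55 cell 2 was near the 7.86% of all genes called in that cell, so its count says nothing particular about stromal genes.

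NR2F2, a nuclear receptor of gonadal interstitial cells, was at 222 RPM in E36 cell 5 and 463 RPM in E47 cell 1 but at 5.07 RPM in E55 cell 2. Among the 6 others it was at 83.5 RPM in E36 cell 1, 1.96 RPM in E36 cell 3 and 0 in the rest. Its relative NR2F1 was at 65.5, 29.9 and 0 RPM in the 3 cells and at 0 to 6.16 RPM in the others. MEIS2, a homeobox gene of mesenchyme, was at 55.3 RPM in E36 cell 5, 0.907 RPM in E47 cell 1 and 0 in all others, and MEIS1 was at 54.0 RPM in E36 cell 5 and at 9.89 RPM or less in every other gonad cell. E36 cell 5 and E47 cell 1 thus both held NR2F genes and differed in the MEIS genes.

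Some collagen and matrix genes reached 15 RPM in all 3 cells. COL1A2 was at 41.4 RPM in E36 cell 5, 284 RPM in E47 cell 1 and 193 RPM in E55 cell 2, against 0.489 to 6.42 RPM (median 1.99) in the 6 others. COL3A1 was at 33.6, 396 and 44.2 RPM in the same order, against 0 to 18.9 RPM (median 9.18). DCN, the decorin gene, was at 88.3, 182 and 55.04 RPM against 0 to 43.9 RPM (median 0.819). For these 3 genes the groups did not overlap. All 3 cells lay above all 6 others for 4 of the 28 stromal genes that reached 15 RPM, against 4.04% of all genes. COL1A1 was highest in E36 cell 5 at 349 RPM, with 108 RPM in E47 cell 1 and 21.0 RPM in E55 cell 2, but E36 cell 1, at 80.3 RPM, exceeded E55 cell 2. SPARC, a matrix protein gene, was at 138, 1749.6 and 735 RPM, and E36 cell 1 had 512 RPM, above E36 cell 5. Other matrix genes of the list went other ways. COL6A1 was at 109, 12.7 and 19.6 RPM, with 124 RPM in E36 cell 2. COL5A1 was at 9.85, 317 and 17.4 RPM, with 17.4 RPM in E55 cell 1. POSTN was at 29.7 RPM in E55 cell 2 and at 0 in E36 cell 5 and E47 cell 1. COL6A3 and LUM stayed under 15 RPM in all gonad cells. PDGFRA and PDGFRB, receptors of gonadal stroma, had 0 reads in all 3 somatic-rich cells. Among the 6 others PDGFRB had 0 reads and PDGFRA at most 0.385 RPM.

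DLK1, a marker of fetal Leydig cells and their stromal precursors, was at 59.1 RPM in E36 cell 5, 1196 RPM in E47 cell 1 and 14.5 RPM in E55 cell 2. The 6 others had 0 to 2.47 RPM (median 0.201), so all 3 cells lay above all of them. VCAM1, an adhesion gene of interstitial cells, was at 98.9 RPM in E47 cell 1, 0.724 RPM in E55 cell 2 and 0 elsewhere. ENG, a TGF-beta coreceptor, was at 45.4 RPM in E47 cell 1 and had 0 reads in the other 8.

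**Figure D2:**
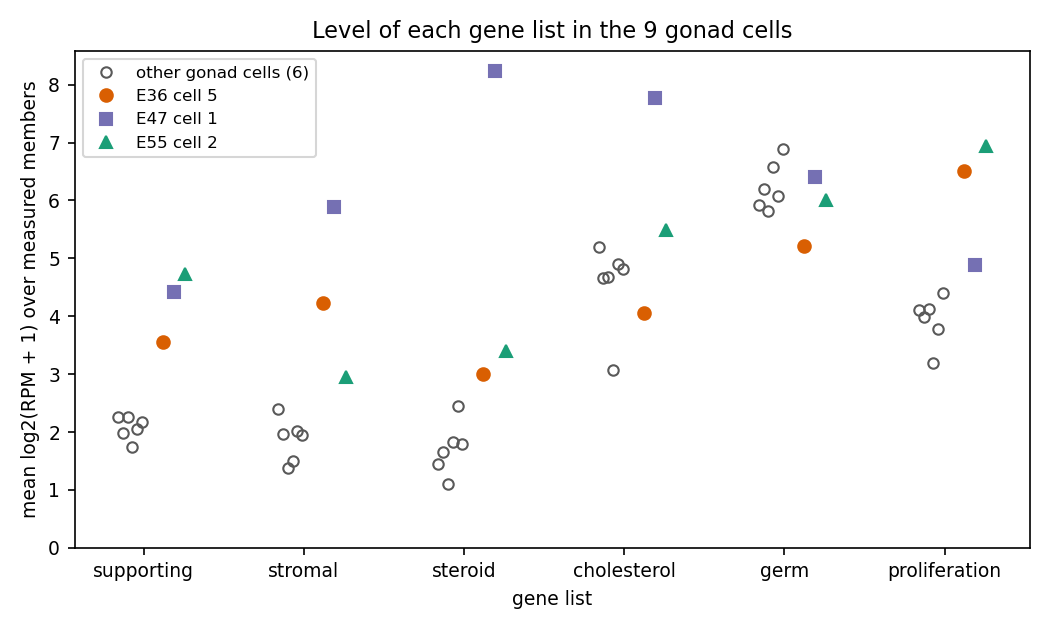
Mean log2(RPM + 1) over the members of 6 gene lists that reached 15 RPM in some gonad cell, with 1 point per cell. Open circles are the 6 other gonad cells, filled symbols the 3 somatic-rich cells. E47 cell 1 stands highest for stromal (5.89), steroid (8.23) and cholesterol genes (7.76), and all 9 cells lie between 5.22 and 6.88 for germ cell genes.

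Steroid synthesis genes were concentrated in E47 cell 1. The list held 28 genes of the table, 22 of which reached 15 RPM in some gonad cell. E47 cell 1 held 21 of the 28 at 15 RPM or more, E36 cell 5 held 10 and E55 cell 2 held 11, against 3 to 8 in the 6 others. Of the 11626 genes, 8016, 6789 and 7555 reached that level in the same order, against 5233 to 6842 in the 6 others. The 10 and 11 of 22 were smaller shares than those of all genes in the same cells. The number at least 2-fold above all others was 17 in E47 cell 1, 4 in E36 cell 5 and 2 in E55 cell 2. INSL3, through which the rule took in E47 cell 1, is among the 17 and in the sum below. The 2 of 22 in E55 cell 2 were near the 7.86% of all genes called there, while all genes had 9.34% in E47 cell 1 and 7.11% in E36 cell 5. Summed over the list, steroid genes made up 2.73% of the RPM of E47 cell 1 and 0.0661% and 0.0694% in E36 cell 5 and E55 cell 2. The median difference of the list was 2.63, and without E47 cell 1 it was 1.57 and without E36 cell 5 it was 4.27. As E47 is represented by this cell alone, the cell and the stage cannot be told apart.

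The enzymes of the path from cholesterol to androgen were found together in E47 cell 1. STAR was at 805 RPM there, 65.9 RPM in E36 cell 5 and 0 in E55 cell 2, and at 0 to 4.41 RPM (median 0) in the 6 others. CYP11A1 was at 992 RPM in E47 cell 1 and at 19.5 RPM in E55 cell 1, with 0 reads in the other 7. Its electron carriers FDX1 and FDXR were at 672 and 209.5 RPM in E47 cell 1. HSD3B2 was at 182 RPM and CYP17A1 at 3053 RPM, where the highest other gonad cell, E55 cell 2, had 8.69 and 2.90 RPM. HSD3B2 has a near-identical neighbour, HSD3B1, at 0 reads in all 9 cells, and how reads were split between them is not given. HSD17B3, which makes testosterone, had 0 reads in E47 cell 1 and 5.07 RPM in E55 cell 2, and CYP19A1, which makes oestrogen, was at 8.16 RPM in E47 cell 1 and 0 elsewhere.

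LHCGR, the receptor through which gonadotropins drive Leydig cells, was at 192 RPM in E47 cell 1, 1.23 RPM in E36 cell 2 and 0 in the other 7. Genes of the adrenal cortex were checked because that tissue shares the early steroid enzymes. Of 8 such genes, E47 cell 1 held 3 at 15 RPM or more: HSD3B2, CYP21A2 at 20.0 RPM and NR0B1 at 18.1 RPM. These 3, of 4 that reached 15 RPM in some gonad cell, were at least 2-fold above all 6 others in E47 cell 1. All genes had 9.34% there. HSD3B2 is also in the steroid list, and NR0B1 in the supporting and ovarian lists. CYP21A2 and NR0B1 rested on 22 and 20 reads and had 0 reads in every other gonad cell. Of the rest, CYP11B1, CYP11B2 and MC2R had 0 reads in all 9 cells. MRAP was at 7.26 RPM in E47 cell 1 and 15.4 RPM in E55 cell 1, and SULT2A1 was at most at 3.63 RPM. From which gland this RNA came was not tested.

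Of the steroid list, FDXR and DLK1 were above all 6 others in all 3 cells, as was INHA with 2 reads in E36 cell 5. These were 3 of the 22 genes that reached 15 RPM, against 4.04% of all genes. FDXR was at 50.9 RPM in E36 cell 5, 209.5 RPM in E47 cell 1 and 29.7 RPM in E55 cell 2, and at most 0.385 RPM in the 6 others. Embryo cells also held it, with 10 of 25 at 15 RPM or more, up to 67.8 RPM. GSTA4, a glutathione transferase gene, was at 140.2, 96.1 and 55.04 RPM, and E36 cell 6 (42.0 RPM) and E55 cell 1 (65.6 RPM) held it too, the latter within the range of the somatic-rich cells.

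As a list, genes of cholesterol synthesis and uptake were also highest in E47 cell 1. Of 25 listed genes, 23 reached 15 RPM in some gonad cell. In E47 cell 1, 14 of these stood at least 2-fold above all 6 others, against 9.34% of all genes. E55 cell 2 had 3 such genes, against 7.86% of all genes, and E36 cell 5 had 0. IDI1, an enzyme of isoprenoid synthesis, was at 563 RPM in E47 cell 1 and at most 133 RPM elsewhere. FDFT1, the squalene synthase gene, was at 419.9 RPM in E47 cell 1, below the 515 RPM of E36 cell 1. APOC1 and APOE, which bind lipid particles, were at 936 and 189 RPM in E47 cell 1 and at no more than 16.01 and 11.55 RPM in the 6 others.

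**Figure D3:**
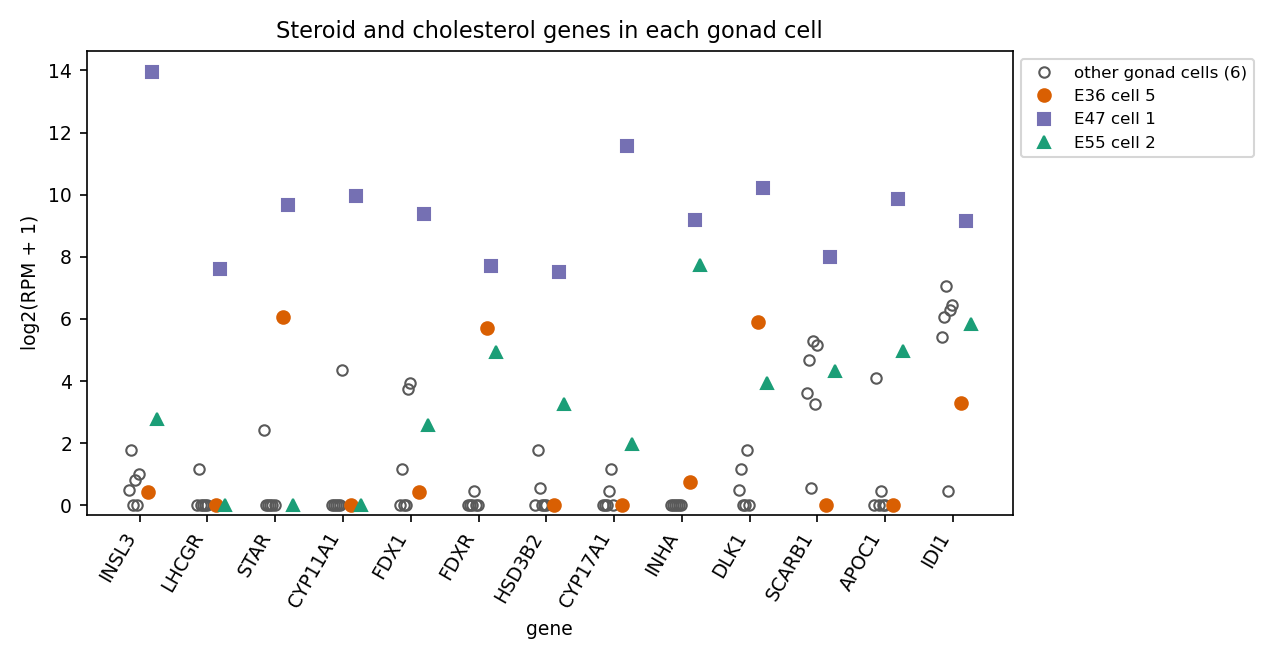
Levels of 13 steroid and cholesterol genes as log2(RPM + 1), with 1 point per gonad cell. The square, E47 cell 1, lies above all other cells for each gene shown, from INSL3 at 15703 RPM to HSD3B2 at 182 RPM.

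Genes of signals between germ, supporting and interstitial cells lay in different cells. Of 37 listed genes, 28 reached 15 RPM in some gonad cell. Of these 28, 9 stood at least 2-fold above the 6 others in E47 cell 1, 7 in E55 cell 2 and 6 in E36 cell 5. All genes had 9.34%, 7.86% and 7.11% in the same order. INSL3, which the rule used, is among the 9 in E47 cell 1. Beside the ligand gene DHH in E55 cell 2, the hedgehog receptor gene PTCH1 was at 32.3 RPM in E36 cell 5 and 34.5 RPM in E47 cell 1, at 0 in E55 cell 2 and at most 2.46 RPM in the others. HHIP, a hedgehog-binding protein and target, was at 336 RPM in E47 cell 1, at 4.82 RPM in E36 cell 1 and at 0 in the other 7. GLI1, another target, had 0 reads in all 9 cells. KITLG, the ligand of the germ cell receptor KIT, was at 46.2 RPM in E36 cell 5 and 52.1 RPM in E55 cell 2, at 0 in E47 cell 1 and at 0 to 7.34 RPM in the others. KIT itself was at 106, 210.4 and 674 RPM in E36 cell 5, E47 cell 1 and E55 cell 2, and at 116 to 465 RPM (median 251) in the 6 others. KIT and KITLG were therefore found in the same libraries in E36 cell 5 and E55 cell 2.

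Of the enzymes that make retinoic acid, ALDH1A2 was at 90.0, 18.1 and 20.3 RPM in the 3 cells and had 0 reads in all 6 others. ALDH1A1 was at 33.6 RPM in E47 cell 1 and 95.6 RPM in E55 cell 2 and had 0 reads in the other 7. CYP26B1, which breaks retinoic acid down, was found in E55 cell 1 alone, at 14.3 RPM. AMHR2, the receptor of anti-Müllerian hormone, was at 86.9, 21.8 and 52.9 RPM in the 3 cells, and E36 cell 3 held 55.3 RPM and E36 cell 1 held 14.8 RPM.

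Germ cell genes were present in all 3 somatic-rich cells. Of 39 such genes measured, 35 reached 15 RPM in some gonad cell, and 4 (PIWIL4, UTF1, NANOS2 and STRA8) did not. E36 cell 5 held 23 at 15 RPM or more, E47 cell 1 held 32 and E55 cell 2 held 28, against 27 to 32 in the 6 others. Of the 11626 genes, 6789, 8016 and 7555 reached that level in the same order, against 5233 to 6842 in the 6 others. The median difference of the list was -0.47, where all genes had 0.74. It was 0.054 without E36 cell 5, and -0.56 at the other end of the values with 1 cell left out. On average 2 genes were at least 4-fold higher in the somatic-rich cells (ALPL and TDRD9), and 3 were as much lower (T, MAEL and DPPA5). Of all genes, 20% were as much higher and 1.38% as much lower. Summed over the list, germ cell genes made up 0.543% of the RPM of E36 cell 5, 0.540% of E47 cell 1 and 0.799% of E55 cell 2, against 0.731% to 1.04% in the 6 others.

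For 2 of the 35 germ cell genes that reached 15 RPM all 3 cells lay below all 6 others, against 0.55% of all genes. NANOG, a factor of pluripotent cells that germ cells also express, was at 647 RPM in E36 cell 5, 552 RPM in E47 cell 1 and 479 RPM in E55 cell 2, and at 909 to 1323 RPM (median 1169.9) in the others. The means were 559.7 ± 84.1 RPM (SD, 3 cells) and 1162 ± 145 RPM (SD, 6 cells). T, the brachyury gene, which early primate germ cells express, was at 6.79, 35.4 and 0 RPM, and at 48.0 to 238 RPM (median 155) in the others. Summed over cells, T had 10.9 RPM in the somatic-rich cells (exact Poisson interval at 95%, 8.27 to 14.02) and 160.4 RPM in the others (152.6 to 168.6).

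Other core factors were shared by both sets of cells. POU5F1 was at 1214 RPM in E36 cell 5, 599.5 RPM in E47 cell 1 and 1611 RPM in E55 cell 2, and at 1477 to 2639 RPM (median 1752) in the 6 others, so E55 cell 2 lay within their range. TFAP2C, a specifier of primate germ cells, was at 193, 127 and 269 RPM against 15.7 to 369.9 RPM (median 192). SOX17, which acts with it, was at 356 RPM in E36 cell 5, and at 159.6 and 87.6 RPM in E47 cell 1 and E55 cell 2, under the 188 to 559 RPM (median 389) of the others. PDPN, a surface protein gene of germ cells, was at 1054, 731 and 1609 RPM against 772 to 1268 RPM (median 1067). NANOS3, an RNA regulator that keeps germ cells alive, was at 14.6, 25.4 and 29.0 RPM against 24.7 to 198 RPM (median 70.9).

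The later germ cell genes differed among the 3 cells. DAZL, an RNA-binding gene of gonadal germ cells, was at 3.40 RPM in E36 cell 5, 146 RPM in E47 cell 1 and 7.97 RPM in E55 cell 2, and at 2.45 to 293 RPM (median 45.7) in the others. DDX4, the germ cell helicase, had 0 reads in E36 cell 5, and stood at 60.8 RPM in E47 cell 1 and 129 RPM in E55 cell 2. E36 cell 3, among the 6 others, had 0 reads of DDX4 as well, and the rest had up to 168 RPM (median of the 6, 88.9). SPATA22, a meiotic recombination gene, was at 6.45, 169.6 and 53.6 RPM against 56.9 to 202 RPM. GTSF1, a piRNA pathway gene, was at 172, 109 and 2.90 RPM against 3.21 to 176 RPM (median 102). E47 cell 1, with the highest level of Leydig cell genes, therefore held DAZL, DDX4 and SPATA22 within the range of the 6 other cells.

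**Figure D4:**
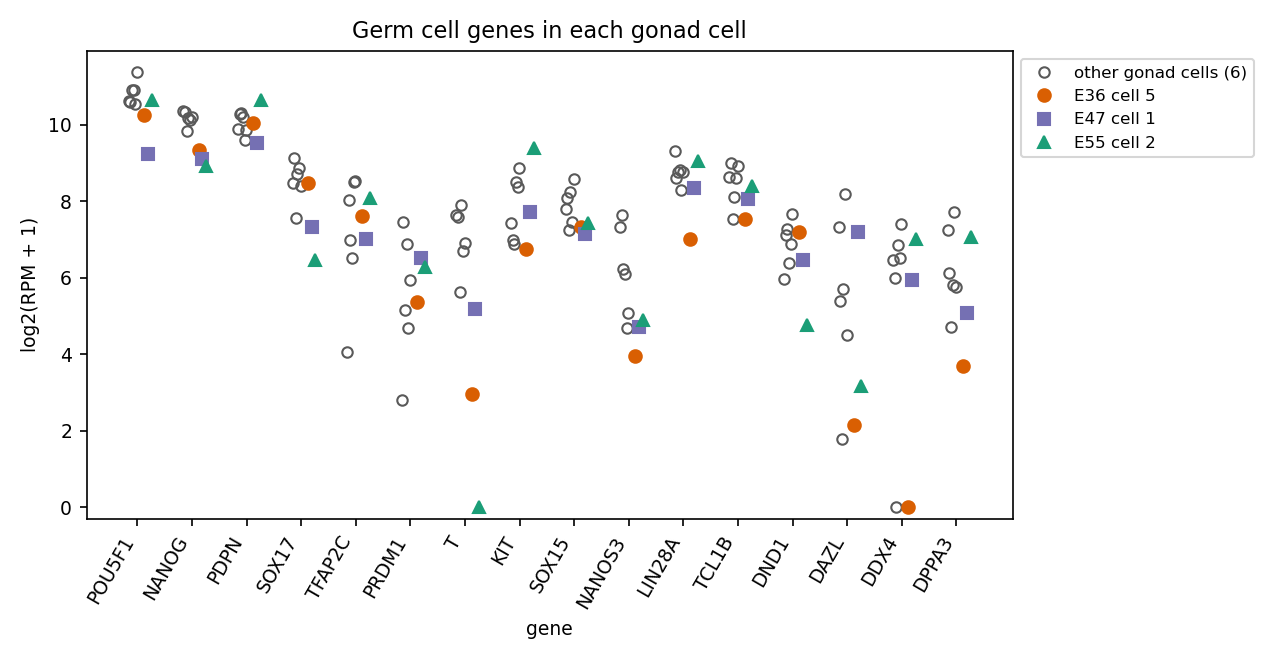
Levels of 16 germ cell genes as log2(RPM + 1), with 1 point per gonad cell. The 3 somatic-rich cells (filled) lie below all 6 others (open) for NANOG and T and overlap with them for the other genes shown.

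Cell cycle genes were highest as a list in E36 cell 5 and E55 cell 2, and E47 cell 1 lay between these and the 6 other cells. All 30 listed genes reached 15 RPM in some gonad cell, with a median difference of 2.23. On average 18 of them were at least 4-fold higher, where 20% of all genes were. The number at 15 RPM or more was 28 in E36 cell 5, 29 in E55 cell 2 and 20 in E47 cell 1, against 12 to 18 in the 6 others. Of the 11626 genes, 6789, 7555 and 8016 reached that level in the same order, against 5233 to 6842 in the 6 others. The 20 of 30 in E47 cell 1 was near the share of all genes. MKI67, a marker of cycling cells, was at 111 RPM in E36 cell 5, 211 RPM in E55 cell 2 and 7.26 RPM in E47 cell 1, and at 0 to 8.83 RPM (median 0) in the others. TPX2, a spindle gene, was at 143, 204 and 67.1 RPM in E36 cell 5, E55 cell 2 and E47 cell 1, and at 0 to 34.5 RPM (median 3.69) in the others. BIRC5, which acts in cell division, was at 142, 71.0 and 10.9 RPM in that order and at 0 to 29.6 RPM in the others. MCM genes of the replication helicase overlapped, and MCM6 was at 295 RPM in E36 cell 5, 339.7 RPM in E55 cell 2 and 401 RPM in E47 cell 1 against 37.0 to 399 RPM (median 302) in the others. Which cells the cell cycle RNA came from was not tested.

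**Figure D5:**
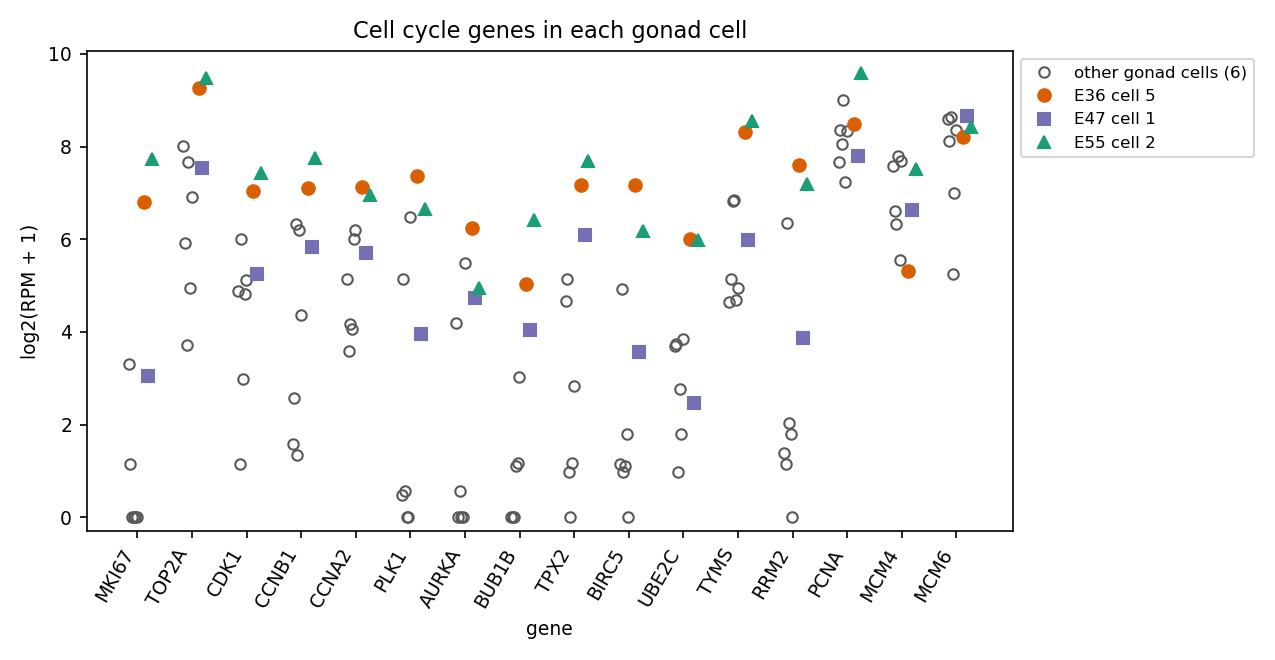
Levels of 16 cell cycle genes as log2(RPM + 1), with 1 point per gonad cell. E36 cell 5 (circle) and E55 cell 2 (triangle) lie above all 6 other cells (open) for MKI67, TOP2A, CDK1, TPX2, BIRC5 and others, and E47 cell 1 (square) lies at 7.26 RPM for MKI67.

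Markers of other cell types were found on both sides of the rule. Of 22 endothelial, macrophage and red cell genes in the table, 1 reached 15 RPM in each somatic-rich cell and 1 to 3 in the others. TIE1 and PTPRC, genes of endothelium and leukocytes, had 0 reads in all 9 cells, and CDH5 was found in E55 cell 1 alone, at 1.02 RPM. These zeros therefore did not set the somatic-rich cells apart. ESAM was at 9.51 RPM in E36 cell 5 and 2.72 RPM in E47 cell 1, and at up to 41.0 RPM in the 6 others. CLDN5 (2.72 RPM) and EMCN (0.907 RPM) were found in E47 cell 1 alone, on a few reads. The summed level of this list was 28.1 to 56.5 RPM in the 3 cells and 62.1 to 556 RPM in the 6 others, where E36 cell 1 had 207 RPM of VWF. KDR, a receptor of endothelium that all 6 other cells held, was at 30.9, 19.0 and 0 RPM against 34.8 to 279 RPM (median 88.3). HBG1, a fetal globin gene, was at 48.5 RPM in E55 cell 2 and 0 in the other 8. E55 cell 2 also held RGS5, a pericyte gene, at 135 RPM and ACTA2 at 92.0 RPM, where the other 8 cells had at most 2.72 and 9.22 RPM. It held 4 of 9 smooth muscle and pericyte genes and 4 of 9 neural crest genes at 15 RPM or more, among them CHGA at 77.5 and SOX10 at 20.3 RPM. In that cell 7555 of the 11626 genes reached 15 RPM. The part of these other types in the result was not tested.

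In or outside the lists, 22 of the 11626 genes were at 15 RPM or more in all 3 somatic-rich cells with 0 reads in all 6 others. WT1, which the rule used, ALDH1A2 and HSPA1A were among them. They were chosen after their values were seen. Many were not particular to these cells: of 25 embryo cells, 12 held SPINK2, 14 SGCE and 17 RHOB at 15 RPM or more. PRSS35 reached that level in 4 embryo cells and WT1 in 0. PRSS35, a gene of the serine protease family, on chromosome 4, was at 84.9 RPM in E36 cell 5, 225 RPM in E47 cell 1 and 151 RPM in E55 cell 2, the highest of the 22 by its lowest cell. SPINK2, a protease inhibitor, on chromosome 5, was at 193, 51.7 and 55.04 RPM, and SGCE, a sarcoglycan, on chromosome 3, at 126, 57.1 and 49.3 RPM. COL9A3 (159.6, 19.0 and 135 RPM) and COL9A2 (58.7, 19.0 and 22.5 RPM), chains of collagen IX, and the guidance ligand gene SLIT2 (24.8, 20.9 and 43.5 RPM) were among them.

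Outside the gene lists, the genes with the highest ratio of E47 cell 1 to the highest of the 6 others were IFI27, an interferon-induced gene, at 1646 RPM against at most 0.385 RPM in the 6 others, and PLA2G1B, a phospholipase, at 852 RPM against 0. RHOB, a small GTPase, followed at 693 RPM, then GSTA5 at 536, WFDC1 at 554 and PAPSS2, which makes the donor for sulphation of steroids and other molecules, at 362 RPM. MT3 (523 RPM), REEP1 (245 RPM), ME1, a source of NADPH (232 RPM), and PRSS35 completed the list. GSTA5 was also at 170.1 RPM in E36 cell 5, and PLA2G1B at 205 RPM in E55 cell 2. GSTA5 belongs to a family of near-identical genes, so its reads may be split among relatives. In the other direction PDCD2L was at 9.07 RPM against 113.7 to 308 RPM in the 6 others, and LMO2, a transcriptional cofactor, at 63.5 RPM against 224 to 414 RPM. PCP4L1 (20.0 RPM), YARS2 (28.1 RPM), MTSS1 (19.0 RPM) and TAF11 (20.0 RPM) were the other 4 of the lowest genes.

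In E55 cell 2 the leading genes outside the lists were CDKN1A, the cell cycle inhibitor p21, at 259 RPM, and PLA2G1B at 205 RPM, followed by BTG2, an antiproliferative gene, at 160.1 RPM. SERPINA5 (154 RPM), KIF26B (149 RPM), PDK4 (146 RPM) and TGFBI (92.7 RPM) followed, with COL9A3 and PRSS35. All of these had 0 reads in the 6 others, and GPR56 was at 216 RPM against at most 1.23 RPM. CDKN1A and BTG2 were thus found in a library that also held MKI67. The lowest genes were FKBP15, with 0 reads against 54.8 to 180.4 RPM, LMO2 at 11.6 RPM and the histone gene HIST1H2BK at 15.2 RPM against 144 to 254 RPM. PPIL3 (13.8 RPM), CDO1 (29.7 RPM) and the autophagy gene MAP1LC3B (123 RPM) completed the list.

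In E36 cell 5 the leading genes outside the lists were SPINK2, GSTA5, COL9A3 and SGCE, with the levels given above, then C2orf77 (99.8 RPM), ZDHHC14 (99.5 RPM), BCAS3 (98.8 RPM), BTNL8 (95.1 RPM), RASSF8 (92.0 RPM) and LOC100505730 (89.0 RPM). None of these had a read in the 6 other cells. FABP3, a fatty acid binding protein gene, had 0 reads against 70.1 to 229 RPM in the 6 others, while E47 cell 1 and E55 cell 2 had 226 and 75.3 RPM. POLE4, PDS5B and DNAJC13 were at 0.679, 0.340 and 1.02 RPM, where the lowest of the 6 others had 72.9, 50.7 and 61.0 RPM. FKBP15 (4.41 RPM) and DCUN1D5 (12.2 RPM) completed the list.

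Across the 11626 genes, E36 cell 5 correlated with the 6 other cells at a Pearson r of 0.558 to 0.578, E47 cell 1 at 0.557 to 0.586 and E55 cell 2 at 0.565 to 0.608, on log2 values. Pairs among the 6 others lay between 0.583 and 0.633. Among themselves, the somatic-rich cells correlated at 0.575 to 0.604, with E47 cell 1 and E55 cell 2 the most alike. The genes are not independent replicates, and cells with more genes found differ from the rest in that respect too.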

How the data were processed

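The authors deposited 1 table with 1 column per cell. Its name gives RPM, and the deposited numbers are log2 values of RPM + 1: the back-transformed columns of the gonad cells summed to between 992739 and 995027. Values were taken back to RPM, and 64 values below 0.2 RPM (less than 1 read) were set to 0. Reads per cell were recovered from the step between low values. Of a gonad cell's low non-zero values, 99.8% to 99.9% were then whole within 0.1 read. Higher values were rounded to whole reads without this check. Cutadapt 1.3, TopHat 1.4.1 and Cufflinks 2.2.0 are named in the submitters' processing notes, with no role. The sources used here do not name the genome build or annotation. Genes were matched by the human symbol that the table pairs with 17683 of 28551 genes, and chromosomes are as the table lists them.

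Cells were numbered within a stage in accession order. Each stage is 1 sample, so no test between groups was run; only Dixon's test for a cell apart was used, within the E36 cells. Differences are of mean log2(RPM + 1), somatic-rich minus other cells. The pseudocount was 1 RPM, and 15 RPM was the level for a gene to count. A cell's gene was called at 15 RPM or more and at least 2-fold above the highest of the 6 other cells. Named genes were list members, and per somatic-rich cell the 10 genes with the highest ratio of (RPM + 1) to the highest of the 6 others and the 6 with the lowest ratio to their lowest, at 50 RPM or more, outside the 14 lists. Intervals and limits cover counting error only, as reads from amplified cDNA carry no molecular identifiers. The members and lists were chosen with earlier results of these data known. Some lists share genes: INHA and NR5A1 are in the supporting and steroid lists, DLK1 in the stromal and steroid lists, TCF21 in the supporting and stromal lists, and HMGCS1 in the steroid and cholesterol lists. INHBB, IGF2, CYB5A, GSTA1 and TDRD12, from these lists, did not match a symbol and were not analysed here. Some list members are counted but not reported here by name. No doublet caller was run on 34 libraries. The calculation was tested on simulated data. Python 3.11.15, numpy 2.4.6, pandas 2.3.3 and scipy 1.17.1 were used. Alternatives were other pseudocounts, filters, thresholds and depths, comparisons within a stage, and leaving out each cell.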

Additional observations from a re-analysis of the deposited data

Results flagged for a closer look

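The 6 E36 cells were screened on 22 measures (mean levels of the 14 lists, the 6 marker genes, genes found and reads) for a single cell that stood away from the other 5, with Dixon's test of the gap relative to the range at its 95% critical value. Chance picks out about 1 in 20 such groups, and 9 of 22 measures were picked out. These 2 figures cannot be compared, because the lists share genes and E36 cell 5 was chosen by its own values. E36 cell 5 had been chosen for its WT1, so its distance on WT1 (7.145 against 0 in log2 units) and on the supporting list (3.557 against 2.265 in the next cell) was built in. It also lay apart, upwards, on the mean log2 level of the stromal list (4.233 against 2.394), the signalling list (3.424 against 2.728), the cell cycle list (6.512 against 4.125) and the stress list (4.494 against 3.494). List members could count by reaching 15 RPM in E36 cell 5 alone, so these distances may be built in in part. The ovarian list, through RSPO1 alone, was at 2.764 against 0. It had 6789 genes at 15 RPM or more, and the next E36 cell had 5767. The adrenal list set E36 cell 2 apart at 0.448 against 0.1437, a difference of a few reads. Of the 14 lists and 6 marker genes screened, 0 differed in opposite directions at E36 and E55.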

How the results depend on the processing

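Of 96 values recomputed with all cells kept or by stage, 61 stayed close to the reported value, 35 moved and 0 turned direction. With a pseudocount of 10 RPM the medians were 0.88 (supporting), 1.10 (stromal) and 1.88 (steroid), with 258 genes higher and 10 lower at least 4-fold, and all genes at 0.34. With 0.1 RPM they were 2.09, 3.02 and 3.55, with 4021 and 403 genes, and all genes at 1.06. As log2 ratios of mean RPM they were 2.204, 3.53 and 5.15, with 793 genes lower, and all genes at 0.27. Without a filter the supporting median was 1.13 and the stromal 1.78. Within E36 the medians were 2.66 (supporting), 4.24 (stromal) and 1.57 (steroid), with 1008 genes lower. Within E55 they were 3.87 (supporting) and 1.404 (stromal), with 1179 genes lower. With the WT1 limit at 100 RPM, which moves E55 cell 2 to the other cells, they were 1.20, 3.06 and 3.60, with 305 genes lower.

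For genes above all 6 others, a level of 5 RPM gave 6 steroid genes in E55 cell 2, and 50 RPM gave 1 steroid and 1 stromal gene there, 3 supporting genes in E36 cell 5 and 4 in E47 cell 1. The germ cell gene of E47 cell 1 (ALPL) was lost at 4-fold and after thinning (0 genes), and thinning gave 5 stromal genes in E55 cell 2. With 1 cell left out, the medians ran from 1.42 to 2.13 (supporting), 2.21 to 3.35 (stromal), 1.57 to 4.27 (steroid) and -0.56 to 0.054 (germ). The germ median turned to 0.054 without E36 cell 5. The steroid median was lowest without E47 cell 1, and 4.27 without E36 cell 5. The stromal median was highest without E55 cell 2. Genes higher ran from 2237 to 3043 and genes lower from 183 to 355, highest without E47 cell 1 and 299 without E55 cell 2. Germ cell genes above the others ran from 1 to 2 in E47 cell 1 and from 0 to 1 in E55 cell 2, and stromal genes in E55 cell 2 from 3 to 5. The cause of these shifts was not tested. No paired analysis was possible because cell numbers follow accession order. The planned promoter search was not run.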

Other observations

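Of the stress and immediate early genes, which the comparisons above did not describe, E47 cell 1 held the most at 15 RPM or more. It held 13 of 16 listed genes, E36 cell 5 held 8 and E55 cell 2 held 9, and the 6 other cells held 6 or 7. Of the 11626 genes, 8016, 6789 and 7555 reached that level in the same order, against 5233 to 6842 in the 6 others. Of the 14 listed genes that reached 15 RPM in some gonad cell, the 8 and 9 were near those shares. The summed level was highest in E55 cell 1, at 3043 RPM, with 2453 RPM in E47 cell 1. JUN, an early response factor, was at 72.6 RPM in E47 cell 1, 1.45 RPM in E55 cell 2 and 0 in the other 7, and FOSB was at 70.7 RPM in E47 cell 1, 7.81 RPM in E36 cell 5 and 0 in the other 7. FOS, at 133 RPM in E47 cell 1, was at 152 RPM in E36 cell 1, so it did not follow the same order. HSPA1A, a heat shock gene, was at 15.6, 34.5 and 29.0 RPM in E36 cell 5, E47 cell 1 and E55 cell 2 and had 0 reads in all 6 others. GADD45A, a growth arrest gene, was at 71.3, 67.1 and 95.6 RPM against 0 to 45.1 RPM (median 0.192).

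Of 14 mesonephric and coelomic epithelium genes, 2 or 3 reached 15 RPM in each somatic-rich cell and 2 to 4 in the others. PAX8, a gene of the mesonephros, was at 23.6 RPM in E47 cell 1 and 0 elsewhere. S100B was at 52.3 RPM in E36 cell 5 and at most 1.45 RPM in the other 8.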
